A study of Homo sapiens with 6 samples.

Results

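The long non-coding RNAs NEAT1, MALAT1, TP53TG1, PVT1, TUG1, OIP5-AS1 and KCNQ1OT1 were followed by RNA-seq in HCT116 cells, an established colorectal carcinoma cell line with wild-type p53, during p53 activation. The 7 RNAs were chosen by symbol, as RNAs that act in the nucleus or have been linked to p53, and all 7 were found among the 57905 genes counted. Cells received the vehicle DMSO (Nut 0h) or 10 µM Nutlin-3a, which blocks the binding of p53 to its inhibitor HDM2, for 1 h (Nut 1h) or 10 h (Nut 10h). Each condition had 2 biological replicates, 6 libraries in all, from the same line and with no other genotype or agent. The vehicle control stands for the start of treatment, so time in culture and time in the drug cannot be told apart. In these bulk samples, fewer cells that make an RNA and less RNA per cell cannot be told apart either.

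Long non-coding RNAs are transcribed and often spliced like messenger RNAs but have no known long reading frame. NEAT1 is the architectural RNA of paraspeckles, nuclear bodies assembled by proteins such as NONO, SFPQ and PSPC1, and it is a known target gene of p53. MALAT1 lies beside NEAT1 on the chromosome and accumulates in nuclear speckles, where splicing factors are stored. TP53TG1 was named as a p53-induced transcript, PVT1 starts downstream of MYC and is often co-amplified with it, TUG1 and OIP5-AS1 are broadly expressed RNAs of nucleus and cytoplasm, and KCNQ1OT1 is an imprinted antisense RNA that silences genes in cis. The longest NEAT1 form builds the paraspeckle while the short form does not, and gene-level counts add them together.

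Total counts assigned to genes ranged from 26068076 to 35473485 per library, and 6 of the 7 RNAs had enough counts to be tested among 16565 genes. The 7 RNAs together made up 0.0423 to 0.0782% of the counts of a library. The epithelial gene EPCAM was abundant in all 6 libraries, at 7560 to 12539 counts. Of the intestinal markers, CDX2 had 412 to 1377 counts, while LGALS4 and VIL1 reached at most 15 and 10 counts. Of the markers of other cell types, PTPRC, CD3E, DCN and CDH5 had at most 2 counts in any library, CD14 at most 7 and COL1A2 at most 25, whereas COL1A1 had 621 to 1484, PDGFRB 4 to 36 and VWF 10 to 23. Mitochondrial genes took 4.99 to 8.44% of counts, with the highest shares in the 2 Nut 1h libraries. Against Nut 0h, the change of a gene at 1 h was correlated across genes with the GC content of its longest transcript (Pearson r = -0.69 over 16137 genes, which are not independent replicates), and at 10 h it was not (r = -0.03). Of 3273 tested genes with 40 to 45% GC, the range that holds 4 of the 6 tested RNAs, 63.8% were upregulated at 1 h and the median log2 fold change was 0.51. For the 7 RNAs, and for other genes where it matters, the changes at 1 h are therefore also given from a fit that takes out the trend on GC content within every library (the GC-content offset). What part of the trend belongs to the cells and what part to the libraries was not tested.

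The promoters of NEAT1 and TP53TG1 are shown because NEAT1 was upregulated at both time points and TP53TG1 was not detected. Each sequence spans 250 bases before to 50 bases from the annotated start site, in the GRCh37 genome, 5′ to 3′ on the strand of the gene, with every CpG dinucleotide in capitals. NEAT1 lies at chr11:65190019-65190318 on the plus strand and TP53TG1 at chr7:86974818-86975117 on the minus strand.
NEAT1: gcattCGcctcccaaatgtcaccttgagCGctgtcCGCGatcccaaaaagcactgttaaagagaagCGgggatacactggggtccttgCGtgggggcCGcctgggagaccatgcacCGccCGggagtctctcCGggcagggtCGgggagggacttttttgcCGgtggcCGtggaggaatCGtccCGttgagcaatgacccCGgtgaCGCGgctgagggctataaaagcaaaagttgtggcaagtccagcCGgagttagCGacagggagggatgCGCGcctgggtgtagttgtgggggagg
TP53TG1: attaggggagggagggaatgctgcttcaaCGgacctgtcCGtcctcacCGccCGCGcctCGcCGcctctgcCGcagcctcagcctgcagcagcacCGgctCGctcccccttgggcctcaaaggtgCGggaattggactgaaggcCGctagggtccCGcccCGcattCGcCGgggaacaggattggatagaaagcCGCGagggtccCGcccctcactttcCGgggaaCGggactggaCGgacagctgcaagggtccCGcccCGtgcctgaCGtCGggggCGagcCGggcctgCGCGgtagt
The NEAT1 window held 22 CpG and the TP53TG1 window 30, against a median of 11 in the same window of 38596 annotated genes. The other 5 RNAs also had CpG-rich starts, with 23 in OIP5-AS1, 28 in TUG1, 31 in KCNQ1OT1, 34 in MALAT1 and 51 in PVT1. The 10-base p53 half-site consensus, searched as an exact match on both strands, was in none of the 7 windows and in 6.58% of all such windows. In wider windows of 1200 bases, 1000 of them upstream, TP53TG1 had 1 half-site, at position -774 from its start, and the other 6 had none, against 25.3% of all genes with at least 1. A match is a description of letters, and the absence of one in these windows says nothing about binding of p53.

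At Nut 1h, all 6 tested RNAs changed against Nut 0h, 4 of them upward (NEAT1, KCNQ1OT1, TUG1 and OIP5-AS1) and 2 downward (PVT1 and MALAT1). The background was high, since 66.9% of all tested genes passed the same threshold in edgeR's quasi-likelihood test (adjusted p of at most 0.05), with 34.5% upregulated and 32.3% downregulated. At Nut 10h, NEAT1 and PVT1 were upregulated and 4 were not called. None was downregulated in edgeR, and there were also 0 at an unadjusted p under 0.05 and 0 in DESeq2. The background at 10 h was 29.0% of tested genes, 14.1% upward and 14.9% downward. The median log2 fold change of the 6 RNAs was 0.86 at 1 h and 0.19 at 10 h, where the medians of all tested genes were 0.05 and 0.00. Under the GC-content offset, which called 46.2% of tested genes at 1 h and 39.1% at 10 h, 5 of the 6 RNAs were called at 1 h and 2 at 10 h, with medians of 0.27 and 0.17. Both comparisons use the same 2 control libraries.

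**Figure D1:**
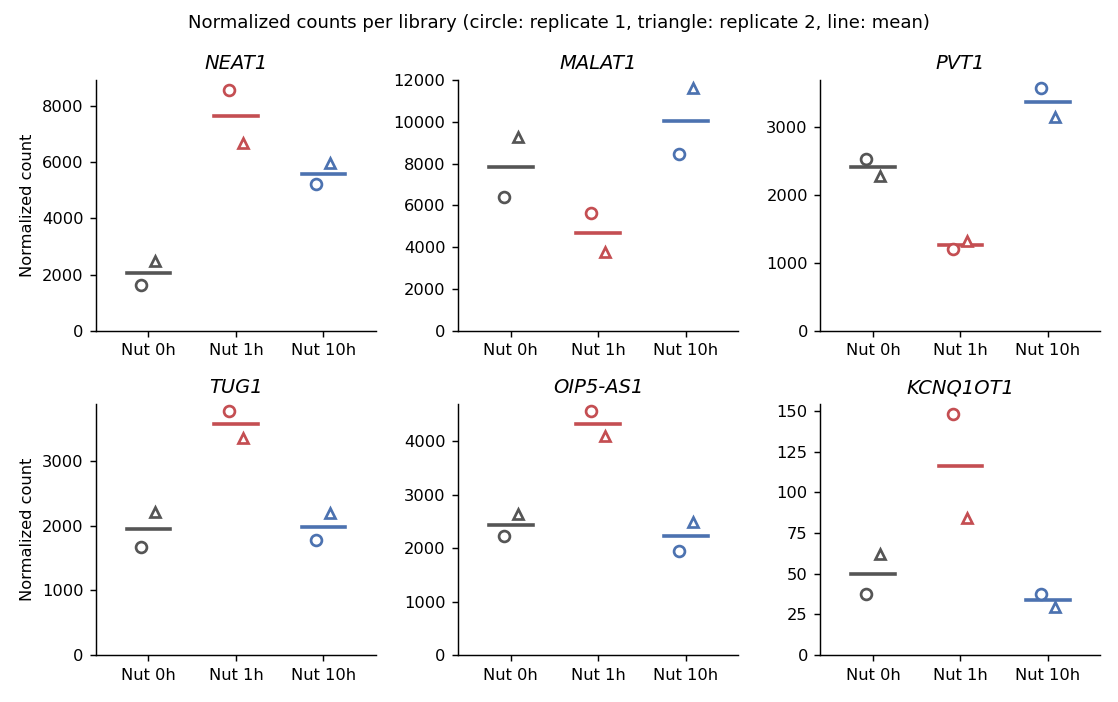
Normalized counts (counts scaled to a common library size by the TMM method) of the 6 detected RNAs in each of the 6 libraries, by condition. Circles are replicate 1, triangles replicate 2 and lines the mean of both. NEAT1 sits at 1608 and 2467 in Nut 0h and at 5233 or above in all 4 treated libraries, while PVT1 falls below its controls at Nut 1h and lies above them at Nut 10h.

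NEAT1 (ENSG00000245532, chr11:65190245-65213011, plus strand, GRCh37), the paraspeckle scaffold, was the only one of the 6 RNAs upregulated at both times. Its normalized counts were 1608 and 2467 in the controls, 8599 and 6682 after 1 h, and 5233 and 5968 after 10 h. The 3 conditions did not overlap, and all 4 treated libraries lay above both controls. The increase was 3.75-fold at 1 h (log2 fold change 1.91, SE 0.17, adjusted p = 5.81e-07, by edgeR's quasi-likelihood test) and 2.75-fold at 10 h (log2 fold change 1.46, SE 0.17, adjusted p = 1.64e-05, the same edgeR test). Both calls held with the GC-content offset, with log2 fold changes of 1.51 and 1.44. They also held with a transcript-length offset, at 1.29 and 1.31, the former being the lowest value at 1 h over all settings. The drop from 1 h to 10 h (log2 fold change -0.45, SE 0.16, adjusted p = 0.0255 in edgeR) was much less firm. It went to -0.07 with the GC-content offset and to 0.02 with the transcript-length offset. In DESeq2 it lost its call at about the same size (log2 fold change -0.43, adjusted p = 0.188). Without Nut 1h replicate 1 it was -0.26 and without Nut 10h replicate 1 it was -0.32, neither called, in a range of adjusted p from 3.75e-05 to 0.873 over all settings in edgeR and DESeq2.

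MALAT1 (ENSG00000251562, chr11:65265111-65275544, plus strand), the nuclear speckle RNA, went the other way at 1 h from its neighbour NEAT1. It had 6425 and 9268 normalized counts in the controls, 5613 and 3776 after 1 h, and 8480 and 11634 after 10 h. Both Nut 1h libraries were below both controls, while the Nut 10h libraries overlapped with the controls. MALAT1 was 1.67-fold lower at 1 h (log2 fold change -0.74, SE 0.19, adjusted p = 0.00386, edgeR's quasi-likelihood test). Its 10 h value missed the threshold (log2 fold change 0.36, SE 0.19, adjusted p = 0.183 in edgeR). With the GC-content offset the decrease at 1 h was larger, at -1.27. The antisense RNA TALAM1 overlaps 8121 of the 10434 bases of MALAT1, and without a stated strand setting reads of both cannot be told apart there. The call at 1 h was lost in DESeq2, although the change was about as large there (log2 fold change -0.77, adjusted p = 0.0511). It was also lost without Nut 1h replicate 2, where the log2 fold change was -0.49. Without Nut 0h replicate 2 the log2 fold change was -0.46. At 10 h MALAT1 was called upregulated without Nut 0h replicate 2 (log2 fold change 0.64) or without Nut 10h replicate 1 (0.57), and also with no low-count filter (0.31).

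Within one library, the ratio of NEAT1 to MALAT1 counts does not depend on scaling between libraries. It was 0.250 and 0.266 in the controls, 1.53 and 1.77 after 1 h, and 0.617 and 0.513 after 10 h. Replicates lay close together in each condition although the counts of both genes differed between them, and the 3 conditions were far apart. With 2 libraries against 2, an exact permutation test of this ratio cannot pass 0.05, so it is given as values only. NEAT1 and MALAT1 had GC contents of 44.05 and 42.04%, both well below the median of 48.7% of the tested genes.

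PVT1 (ENSG00000249859, chr8:128806772-129199347, plus strand), the RNA downstream of MYC, was the one member with opposite calls at the 2 times. Its normalized counts were 2532 and 2286 in the controls, 1206 and 1324 after 1 h, and 3579 and 3148 after 10 h. The replicates were tight and none of the conditions overlapped. PVT1 was 1.91-fold lower at 1 h (log2 fold change -0.93, SE 0.10, adjusted p = 3.41e-06, by edgeR's quasi-likelihood test) and 1.40-fold higher at 10 h (log2 fold change 0.48, SE 0.10, adjusted p = 0.00261, edgeR). From 1 h to 10 h it rose 2.66-fold (log2 fold change 1.41, SE 0.10, adjusted p = 5.43e-08, edgeR). The GC-content offset gave -1.06, 0.45 and 1.51, all called. MYC, the proto-oncogene 51574 bases upstream of PVT1, was also downregulated at 1 h (log2 fold change -0.79) and upregulated at 10 h (0.37). The ratio of PVT1 to MYC counts stayed between 0.0936 and 0.112 over the 6 libraries, at 0.102 and 0.104 in the controls, 0.0939 and 0.0936 after 1 h, and 0.111 and 0.112 after 10 h. The 3 conditions did not overlap in this ratio, and its spread between them was small beside the change of either gene.

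TUG1 (ENSG00000253352, chr22:31365231-31375381, plus strand), an RNA linked to gene silencing in the nucleus and now annotated as protein-coding, was higher at Nut 1h and back near the control level at Nut 10h. It had 1671 and 2212 normalized counts in the controls, 3772 and 3354 after 1 h, and 1770 and 2191 after 10 h. Both Nut 1h libraries were above every other library, and Nut 10h overlapped with Nut 0h. The change at 1 h was 1.84-fold (log2 fold change 0.88, SE 0.13, adjusted p = 5.59e-05, by edgeR's quasi-likelihood test), and at 10 h the log2 fold change was 0.03 (SE 0.13, adjusted p = 0.899, edgeR), with either sign over the settings tried. With the GC-content offset the increase at 1 h was smaller, 0.42 on the log2 scale, and still called.

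OIP5-AS1 (ENSG00000247556, chr15:41576156-41614590, plus strand), also known as Cyrano in other vertebrates, followed the course of TUG1. Its normalized counts were 2227 and 2631 in the controls, 4566 and 4097 after 1 h, and 1953 and 2490 after 10 h. The Nut 1h libraries again stood above the other 4, and Nut 10h overlapped with Nut 0h. The change was 1.78-fold at 1 h (log2 fold change 0.83, SE 0.12, adjusted p = 3.73e-05, by edgeR's quasi-likelihood test), and at 10 h the log2 fold change was -0.13 (SE 0.12, adjusted p = 0.473, edgeR). Under the GC-content offset the call at 1 h was lost, with a log2 fold change of 0.12 and an adjusted p of 0.210 in edgeR, in a range of adjusted p from 7.35e-13 to 0.210 over all settings. OIP5-AS1 has the lowest GC content of the 7 RNAs, 38.59%, and among the 2609 tested genes under 40% GC the median log2 fold change at 1 h was 0.79. Its exons overlap those of OIP5 on the opposite strand by 759 bases and those of NUSAP1 on the same strand by 195, and how reads in such overlaps were assigned is not given in the sources used here.

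KCNQ1OT1 (ENSG00000269821, chr11:2618538-2721233, minus strand), the imprinted RNA transcribed against KCNQ1 from within that gene, was the scarcest tested member. Its raw counts were 39 and 66 in the controls, 148 and 67 after 1 h, and 39 and 32 after 10 h, which correspond to 37.7 and 62.0, 148.5 and 84.3, and 37.7 and 29.8 normalized counts. The Nut 1h libraries were above both controls and differed from each other more, on the log2 scale of CPM + 1 (CPM being counts scaled to the library size), than did those of any other member, and the Nut 10h libraries overlapped with the controls. The change was 2.36-fold at 1 h (log2 fold change 1.24, SE 0.29, adjusted p = 0.00202, by edgeR's quasi-likelihood test) and the log2 fold change at 10 h was -0.57 (SE 0.34, adjusted p = 0.240, edgeR). At 1 h it was 0.82 with the GC-content offset and 0.57 with the length offset, both still called. It rested in part on 1 library, for without Nut 1h replicate 1 it was 0.76 with an adjusted p of 0.0939 in edgeR, the highest over all settings, the lowest being 2.74e-07. All 102696 bases of KCNQ1OT1 lie within KCNQ1 on the opposite strand, 121 of them in exons of both. Without a stated strand setting, reads from either RNA, unspliced KCNQ1 included, cannot be told apart there.

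TP53TG1 (ENSG00000182165, chr7:86952259-86974876, minus strand), named for its induction by p53 in other cells, had 0 counts in each of the 6 libraries. For counting error only, 0 counts are compatible with up to 3, or 0.0846 to 0.115 CPM here, so that TP53TG1 was not detectable at this depth at any time. CROT, a peroxisomal carnitine acyltransferase whose start site is 104 bases away on the other strand and inside the TP53TG1 window shown above, had 1 count in each of 2 libraries and 0 in the other 4. TMEM243, on the other side of TP53TG1, was not called at 1 h (log2 fold change -0.03) or at 10 h (-0.14).

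**Figure D2:**
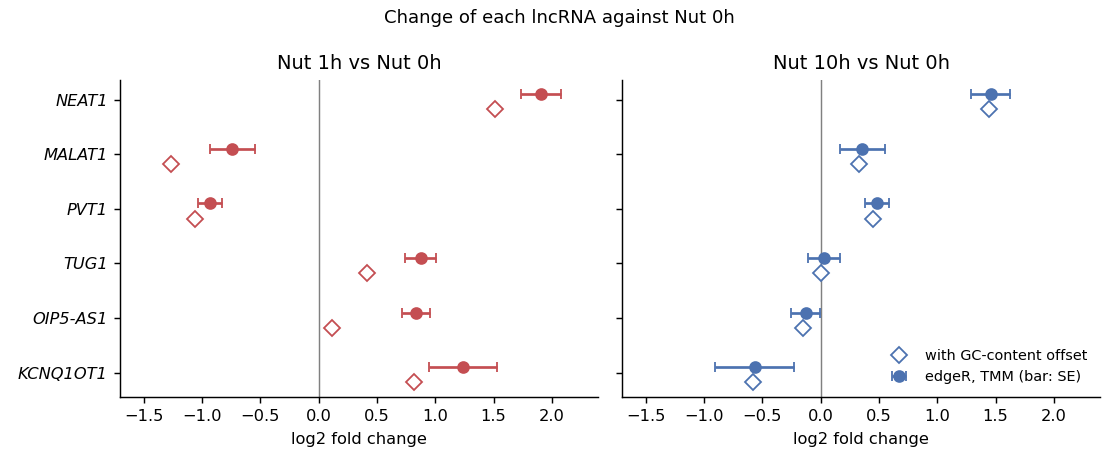
Log2 fold change of each of the 6 tested RNAs against Nut 0h, at Nut 1h (left) and Nut 10h (right). Filled circles with bars are edgeR estimates with their SE, and open diamonds are the estimates with the GC-content offset. At 1 h the offset moves all 6 values downward, OIP5-AS1 from 0.83 to 0.12 and MALAT1 from -0.74 to -1.27, and at 10 h the symbols nearly coincide.

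From Nut 1h to Nut 10h, all 6 RNAs changed again, with 2 upward (MALAT1 and PVT1) and 4 downward (NEAT1, TUG1, OIP5-AS1 and KCNQ1OT1). In this comparison 67.9% of all tested genes were called, 34.2% upward and 33.7% downward. MALAT1 rose 2.14-fold (log2 fold change 1.10, SE 0.19, adjusted p = 0.000184, edgeR's quasi-likelihood test). KCNQ1OT1 was 3.49-fold lower (log2 fold change -1.80, SE 0.31, adjusted p = 0.000151, edgeR). TUG1 and OIP5-AS1 were 1.80-fold and 1.95-fold lower (log2 fold changes -0.85 and -0.96, adjusted p = 6.94e-05 and 9.34e-06, edgeR). With the GC-content offset, which called 58.4% of all tested genes here, these were -0.41 and -0.27, KCNQ1OT1 was at -1.40 and MALAT1 at 1.60, all still called, while NEAT1 was not.

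**Figure D3:**
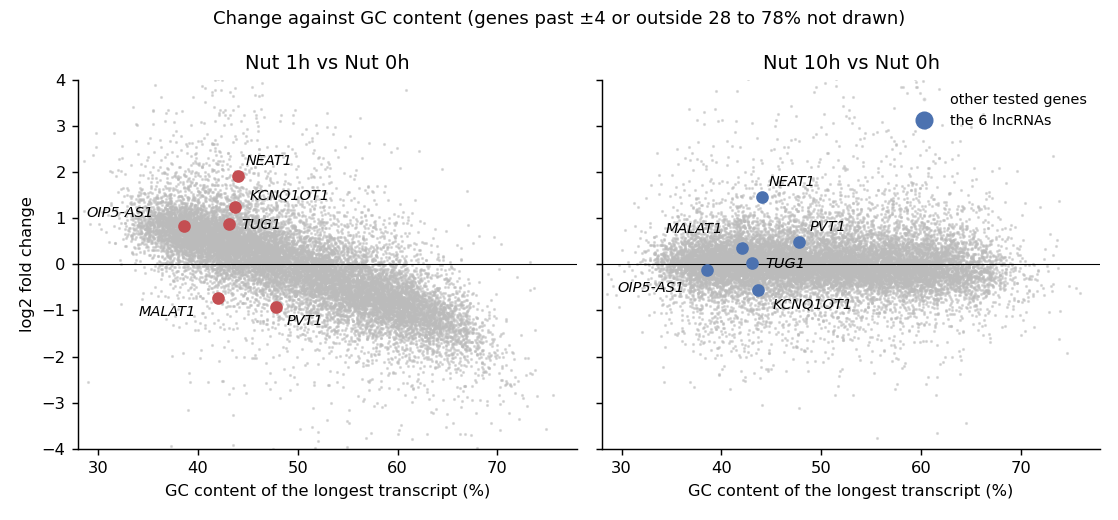
Log2 fold change against Nut 0h (vertical axis) by the GC content of the longest transcript (horizontal axis, %) for tested genes (grey points) and the 6 RNAs (coloured, named), at Nut 1h (left) and Nut 10h (right). At Nut 1h the grey cloud slopes downward (r = -0.69), OIP5-AS1 lies inside it, NEAT1 lies at its upper edge and MALAT1 and PVT1 lie at its lower edge, and at Nut 10h the cloud is flat (r = -0.03).

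The GC trend and the changes of the 6 RNAs were not aligned in the same way for each of them. TUG1, OIP5-AS1 and KCNQ1OT1 changed at 1 h in the direction of most genes with their GC content, and for those with 40 to 45% GC only 4.16% of tested genes were downregulated, a group that includes MALAT1. PVT1, with 47.76% GC, lay in the range of 45 to 50%, in which 14.8% were downregulated and 33.8% upregulated. NEAT1 rose by more than the median of its range by a wide margin, at 1.91 against 0.51. These placements use the longest transcript of each gene and depend on that choice. The annotated transcripts of PVT1 have 40.54 to 57.97% GC, and in the range of 55 to 60% GC, 66.0% of tested genes were downregulated at 1 h. Transcripts of NEAT1 have 36.52 to 57.45% GC and those of OIP5-AS1 37.66 to 60%. The GC-content offset rests on the same choice.

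The differences between replicates of one condition were unusually large for several of the RNAs. Replicate 2 exceeded replicate 1 by 0.61 on the log2(CPM + 1) scale for NEAT1 at Nut 0h and by 0.53 for MALAT1, where 95% of tested genes lay between -0.37 and 0.37. KCNQ1OT1 and TUG1 also lay above that range at Nut 0h, at 0.43 and 0.40. At Nut 1h the sign turned, with -0.57 for MALAT1, -0.63 for KCNQ1OT1 and -0.36 for NEAT1, all below the lower bound of -0.35. At Nut 10h, MALAT1 was at 0.45, above the bound of 0.38, and NEAT1, TUG1 and OIP5-AS1 were at 0.19, 0.30 and 0.35. PVT1 stayed within 0.18 of zero in each condition, at -0.15, 0.13 and -0.18. The difference between replicates was itself correlated across genes with GC content, at r = -0.45 for the controls, 0.27 after 1 h and -0.56 after 10 h. The part of GC content in the replicate differences of these RNAs was not tested.

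**Figure D4:**
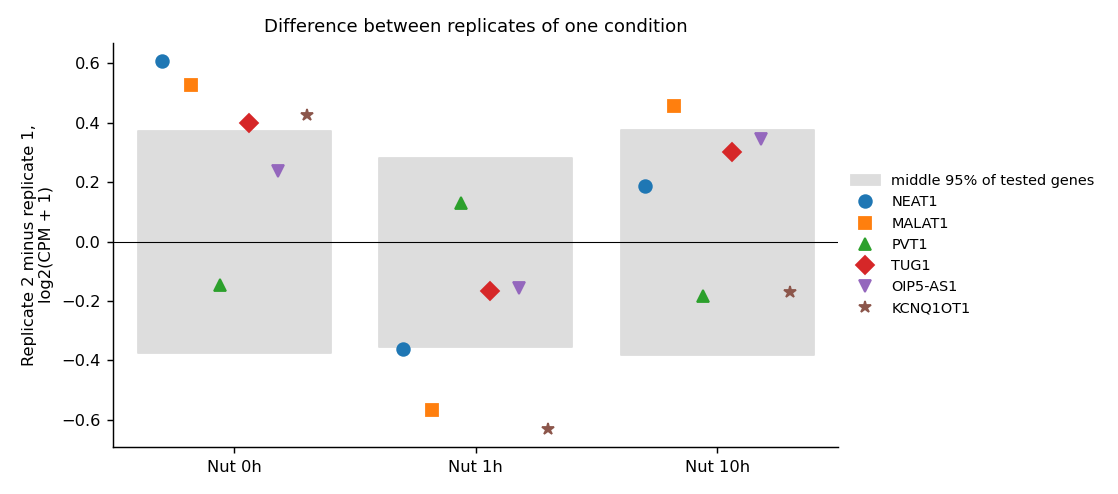
Replicate 2 minus replicate 1 on the log2(CPM + 1) scale for the 6 RNAs in each condition, with the grey band covering the middle 95% of the tested genes. NEAT1 (0.61) and MALAT1 (0.53) lie above the band at Nut 0h, MALAT1 (-0.57) and KCNQ1OT1 (-0.63) lie below it at Nut 1h, and PVT1 lies inside it at all times.

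Levels between genes were compared per kilobase of the longest transcript, as TMM-scaled CPM per kilobase (RPKM). At Nut 0h, PVT1 was highest at 31.3 and 28.3, followed by MALAT1 at 18.7 and 26.9. OIP5-AS1 (7.60 and 8.97) and TUG1 (6.77 and 8.97) overlapped, NEAT1 was lower at 2.14 and 3.29, and KCNQ1OT1 was far below at 0.0125 and 0.0205. At Nut 1h the order closed up. PVT1 (14.9 and 16.4), MALAT1 (mean 13.6, SD 3.77, n = 2), OIP5-AS1 (15.6 and 14.0) and TUG1 (15.3 and 13.6) overlapped there, and NEAT1 at 11.5 and 8.90 overlapped only with MALAT1. At Nut 10h, PVT1 (44.2 and 38.9) and MALAT1 (24.6 and 33.8) stood apart from each other and from OIP5-AS1, TUG1 and NEAT1, which all lay between 6.66 and 8.88. The order depends on the length used. PVT1 has 190 annotated transcripts of 408 to 2450 bases but 25431 exon bases in all, and over these its RPKM at Nut 0h was 3.02 and 2.72 in place of 31.3 and 28.3. NEAT1 transcripts range from 512 to 22743 bases, so its level per kilobase is a lower figure than one set over a short form.

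To place each course among all genes, the 2 nearest of 11575 well-counted genes (11576 for KCNQ1OT1) were found by the distance between centred log2(CPM + 1) profiles over the 6 libraries. TUG1 was nearest to BTAF1 (distance 0.0584, Pearson r = 0.9988) and DICER1, and OIP5-AS1 to C1GALT1 (distance 0.0862) and USP45, all genes with 35.94 to 39.50% GC. Within a distance of 0.5 there were 1725 genes for TUG1 and 1771 for OIP5-AS1, so their course was a common one in these libraries. PVT1 was nearest to CHST14 (distance 0.0583) and UNC13D, with 675 genes within 0.5. These 2 genes have 61.75 and 61.27% GC, against 47.76% for the longest transcript of PVT1. KCNQ1OT1 was nearest to ANKRD36 (distance 0.254) and AC009404.2, with 61 genes. At 0.902 to 4.50 CPM, the 1 added before taking logs shrinks its differences, so this count cannot be set beside the others. ANKRD36 had log2 fold changes of 0.87 at 1 h and -0.29 at 10 h, against 1.24 and -0.57 for KCNQ1OT1. MALAT1 had only 3 genes within 0.5, the nearest being CCDC114 (0.442, 59.04% GC) and STRADA (0.483, 54.30% GC), against 42.04% GC for MALAT1. NEAT1 had none, and its nearest genes were AC005336.4 (distance 0.610, r = 0.98) and NFAT5 (0.651, r = 0.95). These are descriptions over 6 libraries that share 3 conditions. TUG1 and OIP5-AS1 were 0.208 apart, and their count ratio lay between 0.750 and 0.906 in all 6 libraries.

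The genes of proteins that build paraspeckles with NEAT1 were called in both directions at 1 h and downward at 10 h. Of 19 listed genes, all tested, 11 were upregulated and 3 downregulated at 1 h, and 9 were downregulated at 10 h. Over all tested genes 34.5% were upregulated at 1 h and 14.9% downregulated at 10 h, and the list's shares were 57.9% and 47.4%. None was upregulated at 10 h in edgeR, with 0 also at an unadjusted p under 0.05 and 0 in DESeq2. At 1 h the largest changes were those of ZNF24 (log2 fold change 1.40), HNRNPH3 (1.12), TAF15 (1.06) and CPSF6 (0.91), RNA-binding and zinc-finger proteins found in paraspeckles. At 10 h the downregulated genes included SFPQ (-0.49), one of the core proteins, SMARCA4 (-0.45), a chromatin remodeller, and DAZAP1 (-0.37). The core protein NONO was not called at either time (-0.02 and -0.14), and PSPC1 was called at 10 h only (0.06 and -0.33). At 1 h the GC-content offset gave -0.18 for NONO and -0.24 for PSPC1, both called downregulated. It gave 0.14 for CPSF6, no longer called, while ZNF24 and HNRNPH3 went to 0.61 and 0.67. TAF15 has no GC value here and took only the mean offset of each library, so its 1.12, still called, is not corrected for its own GC content. SMARCA4 turned from -0.53 to 0.39 at 1 h and FAM98A from 0.34 to -0.47, called in both fits. With the offset, 7 of the 19 were upregulated and 7 downregulated at 1 h, where 23.0% of all tested genes were upregulated and 23.2% downregulated. At 10 h the offset fit called 12 downregulated, against 20.3% of all tested genes. The count at 10 h fell to 3 without Nut 0h replicate 1, to 4 without either Nut 1h library and to 5 without either Nut 10h library. The list's median log2 fold change was 0.34 at 1 h, or 0.11 with the offset, and -0.25 at 10 h, or -0.28.

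The list of nuclear speckle proteins, from the bodies where MALAT1 accumulates, had many calls at both times. Of 14 tested genes, 9 were upregulated and 2 downregulated at 1 h, and 10 were downregulated at 10 h. These are 64.3% upward at 1 h and 71.4% downward at 10 h, against 34.5% and 14.9% of all tested genes. Again 0 were upregulated at 10 h in edgeR, 0 at an unadjusted p under 0.05 and 0 in DESeq2. Under the GC-content offset the counts were 9 upward and 2 downward at 1 h and 11 downward at 10 h, where the same fit called 23.0% of all tested genes upward and 23.2% downward at 1 h and 20.3% downward at 10 h. The genes behind the counts at 1 h were not all the same, since SRSF1 turned from 0.46 to -0.25 and U2AF2 from -0.53 to 0.38, SRRM1 and SRSF3 lost their calls, and SRRM2 and PRPF6 gained one. BCLAF1, PNN and DYRK1A stayed called in that fit, at 0.54, 0.30 and 0.35. Without the offset, BCLAF1 (1.36), PNN (0.93), which binds splicing factors, and the kinase DYRK1A (0.87) had the largest log2 fold increases at 1 h, and RNPS1 (-0.91), a part of the exon junction complex, was one of the 2 that fell. SRSF2 (-0.69), RNPS1 (-0.44), PNN and SRRM1 (both -0.37) had the largest decreases at 10 h. The median of the list was 0.46 at 1 h (0.30 with the offset) and -0.31 at 10 h, in each case opposite in sign to the log2 fold change of MALAT1, which was not called at 10 h. The count of 10 at 10 h fell to 4 without Nut 0h replicate 1, to 5 without Nut 0h replicate 2 or either Nut 1h library, and to 6 without Nut 10h replicate 1 or with only the 4 libraries compared.

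**Figure D5:**
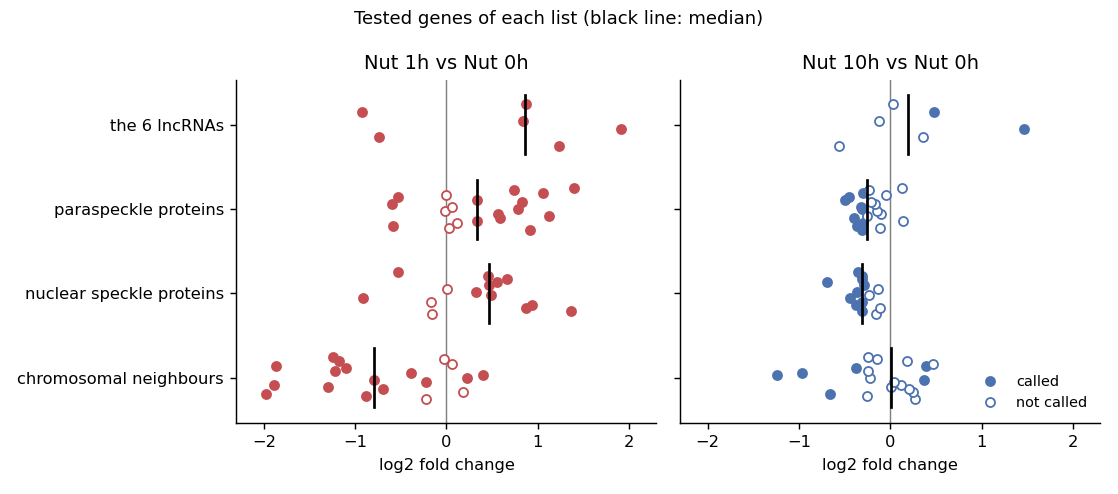
Log2 fold changes against Nut 0h of the 6 tested RNAs and of the tested paraspeckle proteins, nuclear speckle proteins and chromosomal neighbours, at Nut 1h (left) and Nut 10h (right). Filled points passed the threshold, open points did not, and black lines are medians. The protein lists have medians of 0.34 and 0.46 at Nut 1h and of -0.25 and -0.31 at Nut 10h, and the neighbours have -0.79 and 0.01.

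Most tested neighbours of the RNAs were downregulated at 1 h, a count that fell with the GC-content offset. Of 25 genes near the 7 RNAs, 19 were tested, of which 2 were upregulated (NUSAP1 and NAP1L4) and 13 downregulated at 1 h. At 10 h, 2 were upregulated (MYC and SLC22A18) and 4 downregulated, among them OIP5, NUSAP1 and CDKN1C. At 1 h 68.4% of the tested neighbours were downregulated, against 32.3% of all tested genes, and at 10 h 10.5% were upregulated and 21.1% downregulated, against 14.1 and 14.9%. The neighbours had a median GC content of 59.5%. With the offset, 5 of the 19 were upregulated and 7 downregulated at 1 h, where 23.0 and 23.2% of all tested genes were. At 10 h these counts were 7 and 6, against 18.8 and 20.3% of all tested genes. Around NEAT1 and MALAT1, none of the 4 tested neighbours was called upregulated at either time without that offset, and with it 2 of them, FRMD8 and SLC25A45, were at both times. FRMD8, 9248 bases from NEAT1, had log2 fold changes of -0.69 at 1 h and 0.21 at 10 h, with only the former called, and SLC25A45 had 0.06 and 0.46, neither called. The GC-content offset turned FRMD8 to 0.24 and 0.25 and moved SLC25A45 to 0.87 and 0.50, all called. LTBP3, 30485 bases from MALAT1, had -1.89 and 0.12, with only the former called, and with the offset -0.30 and 0.23, both called. Beside PVT1, CASC8 had -0.23 and 0.27, neither called. MORC2, which starts 471 bases from TUG1 on the other strand, was called downregulated at 1 h (-0.23 and 0.04) but not under the offset (-0.02 at 1 h), and SMTN was called at 1 h in both fits (-1.17, and -0.38 with the offset).

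Of the 3 neighbours of OIP5-AS1, OIP5 and NUSAP1 were called at 10 h, where OIP5-AS1 was not. OIP5, a centromere protein gene that overlaps it, was downregulated at both times (log2 fold changes -0.39 and -0.97), and NUSAP1, a spindle protein gene, was upregulated at 1 h (0.40) and downregulated at 10 h (-1.24). CHP1 had 0.18 and 0.24, neither called. Among the genes of the imprinted cluster of KCNQ1OT1, CDKN1C, an inhibitor of cyclin-dependent kinases, was downregulated at 1 h (-1.98, and -0.80 with the offset) and at 10 h (-0.66). SLC22A18 had -1.86, or -0.85 with the offset, and 0.39, all called. KCNQ1 had -1.30 and 0.01, PHLDA2 -1.22 and -0.24, TSSC4 -1.24 and -0.24, and CD81 -0.88 and -0.26, with the values at 1 h called and those at 10 h not. NAP1L4 had 0.22, called, and -0.22, not called. KCNQ1, PHLDA2 and TSSC4 were not called at 1 h under the GC-content offset, with values of -0.15, -0.14 and 0.12, and CD81 was called upregulated there (0.41). The untested neighbours were CROT, TMEM75, GSDMC, CASC11, CCDC26 and MORC2-AS1, each with at most 5 counts in any library.

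Of 9 other lncRNAs linked to p53, only 2 were tested. NORAD, an RNA that sequesters PUMILIO proteins and responds to DNA damage, had 5932 and 6868 counts in the controls, 17335 and 12974 after 1 h, and 9364 and 10741 after 10 h. Like NEAT1 it was upregulated at both times, with log2 fold changes of 1.47 (SE 0.10, adjusted p = 1.02e-07, by edgeR's quasi-likelihood test) and 0.64 (SE 0.10, adjusted p = 0.000220, edgeR). With the GC-content offset its change at 1 h was 0.92, still called. LINC-PINT had 0.18 and 0.17, neither called. PURPL had 2 to 13 counts, MIR34AHG 0 to 10, MEG3 at most 1 and LINC-ROR 0, all too few to test, and DINOL, PANDAR and TP53COR1 were not matched to a counted gene and were not analysed here.

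Of 21 other well-known lncRNAs, 18 were tested, with 6 upregulated and 4 downregulated at 1 h and 5 upregulated and 2 downregulated at 10 h. These are 33.3 and 22.2% at 1 h, against 34.5 and 32.3% of all tested genes, so the upward share was near the background. At 10 h they are 27.8 and 11.1%, against 14.1 and 14.9%. At 1 h the balance turned with the GC-content offset, to 3 upward and 7 downward beside 23.0 and 23.2% of all tested genes. The median log2 fold change at 1 h then went from 0.43 to -0.31. The counts at 10 h were 5 and 2 in both fits, beside 18.8 and 20.3% of all tested genes with the offset. TERC, the RNA template of telomerase, had 80 and 74 counts in the controls, 6 and 4 after 1 h, and 162 and 168 after 10 h. This gave log2 fold changes of -3.69 and 1.09, the largest decrease and the second largest increase among called genes of that list at those times, and its GC content of 66.73% was far above that of the 7 RNAs. FTX, near the X-inactivation center, was upregulated at 1 h (1.77) and not called at 10 h (0.77), and TINCR had -1.35 at 1 h and 1.15 at 10 h. UCA1 (-0.99 and 0.59) had the course of PVT1, with opposite calls at the 2 times, and DLEU2 was upregulated at 1 h (0.88) and downregulated at 10 h (-0.86). CCAT1, which has no GC value here, was upregulated at both times (0.89 and 0.62). The GC-content offset lowered the size of several changes at 1 h, to -2.23 for TERC, 0.99 for FTX, -0.67 for TINCR and 0.48 for DLEU2, all still called. HULC and CASC15 had at most 1 count, and BANCR was not matched. Over all 1793 tested genes annotated as lncRNA, 26.4% were upregulated and 13.3% downregulated at 1 h, and 8.48% and 4.24% at 10 h.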

How the data were processed

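RNA was extracted from pellets of HCT116 cells, and 6 libraries, 2 per condition, were sequenced with paired reads. The authors trimmed reads with Trim Galore 0.6.6, aligned them to GRCh37.p13 with STAR 2.7.0f and counted them per gene with featureCounts of Subread 2.0.0, per the submitters' processing notes. The deposited values are raw counts per gene, not normalized. The strand setting, the handling of multimapping reads and RNA selection are not given in the sources used here. The authors' table of comparisons (log2 fold changes and p-values) was used only to match gene identifiers to symbols.

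Counts were filtered with filterByExpr, normalized with TMM and tested with edgeR 4.0.16 (quasi-likelihood test, R 4.3.3, limma 3.58.1) with a term for condition in one fit over the 6 libraries (3 residual degrees of freedom). Benjamini-Hochberg adjustment ran over 16565 genes, called at an adjusted p of 0.05. Groups came from sample titles. Replicates are called biological, and p-values measure only the spread between these libraries. Replicates of a condition differed beyond sampling noise (chi-square per degree of freedom of 5.21 to 16.9). Normalized counts are counts scaled to the mean TMM library size. Positions, lengths and GC content came from GENCODE on GRCh37, which gave GC content for 97.4% of tested genes. The GC-content and length offsets were loess trends (span 0.4) per library, and genes without a value took the mean of the trend. The scripts were tested on simulated data.

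The members and lists were chosen with earlier results of these data known. Named genes were all 7 members, every tested neighbour, of each other list the called genes with the 4 largest changes, and untested genes, with a few items of these lists not reported here. NONO, PSPC1, LINC-PINT, CDX2 and the other markers were named for their role, after their values were seen. Alternatives were RLE, upper-quartile and total-count scaling, other filters, DESeq2 1.42.0, GC and length offsets, a replicate block, other thresholds and leaving out each library.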

Additional observations from a re-analysis of the deposited data

Results flagged for a closer look

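The levels of all 6 tested RNAs differed between Nut 1h and Nut 10h, by the test of Nut 10h against Nut 1h in edgeR's quasi-likelihood fit. The log2 fold changes between these times were -0.45 for NEAT1, 1.10 for MALAT1, 1.41 for PVT1, -0.85 for TUG1, -0.96 for OIP5-AS1 and -1.80 for KCNQ1OT1. The call for NEAT1 is the one that was lost with the GC-content offset, the length offset and DESeq2. In DESeq2 its log2 fold change stayed at -0.43. Changes between these times were common, with 67.9% of tested genes called. Groups of 2 libraries allow no test for a sample that stands apart.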

How the results depend on the processing

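Of 324 values of single RNAs under an alternative, 305 kept direction and call, 10 lost the call, 3 gained it and 6 changed sign. The changes of sign were those of TUG1 at 10 h without a low-count filter (-0.0165), with the length offset (-0.0282) and on leaving out a control or 10 h library (range -0.16 to 0.24 over all 6), of OIP5-AS1 at 10 h on leaving out Nut 10h replicate 1 (range -0.30 to 0.0378), and of NEAT1 from 1 h to 10 h with the length offset (0.0207). None of these was called. With a minimum absolute log2 fold change of 1, the called RNAs were 2 of 6 at 1 h, 1 at 10 h and 3 from 1 h to 10 h, beside 24.0, 6.85 and 28.7% of all tested genes. Leaving out one library gave 5 to 6, 2 to 3 and 5 to 6 called RNAs, and for the lists 12 to 14 paraspeckle, 10 to 11 nuclear speckle and 12 to 14 neighbour genes at 1 h, and 3 to 7, 4 to 8 and 5 to 8 at 10 h. The lists' alternatives were chosen after seeing the data. With only the 4 libraries compared, 6 nuclear speckle genes were called at 10 h, and with the GC-content offset 13 neighbours, or 12 with the replicate block as well. The causes were not tested.

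The replicate numbers are shared by the conditions, but the samples share only a number. Deviations of same-numbered libraries correlated at -0.31 (Nut 0h and Nut 1h), 0.45 (Nut 0h and Nut 10h) and -0.28 (Nut 1h and Nut 10h). With the replicate block, 6, 2 and 6 RNAs were called, as without it, and over all genes 10979, 4893 and 11189 in place of 11077, 4810 and 11246. The GC-content offset lowered the calls at 1 h over all genes to 7653 and raised those at 10 h to 6477. Depth limits KCNQ1OT1, with 32 to 148 counts, and TP53TG1, with none.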
